A study of Homo sapiens with 12 samples.

Results

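The genes described are P2RY13, GPR82, GPR18 and S1PR3, which encode 4 G-protein-coupled receptors, and EMP1, which encodes a small tetraspan membrane protein. They are 5 of the 19775 genes that the array annotation names alone on at least 1 probe set, a set of short oligonucleotides summarised as 1 level. They were proposed from earlier results of these same arrays, and which values were used is not stated. From their label they are taken here as chosen by their differences between EVI1 and vector cells, and S1PR3 also by its difference between ATRA and DMSO. They are read by 13 probe sets. Where several exist, the one with the highest average over all arrays stands for the gene, and the others are set beside it.

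The arrays measured total RNA of the established human cell line U937, which has features of monocytes, in 4 groups of 3. The groups were cells with an EVI1 expression vector given 1 µM all-trans retinoic acid (ATRA), the same cells given its solvent DMSO, cells with the empty vector given ATRA, and cells with the empty vector given DMSO, each for 24 h. All groups thus carried a vector, and all DMSO groups received the solvent at the amount used with ATRA. Replicates are biological per the series, and whether the transduced cells were clones or pools is not given in the sources used here.

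G-protein-coupled receptors cross the membrane several times and pass a signal from outside the cell to heterotrimeric G proteins inside it. In leukocytes they read nucleotides, lipids and chemoattractants, and many are switched on or off as myeloid cells mature. ATRA is made from vitamin A and acts through nuclear receptors that bind DNA, and it makes certain leukaemias mature. The MECOM gene encodes EVI1, a DNA-binding protein with zinc fingers that acts as an oncogene in myeloid leukaemia.

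Levels are RMA signals on the log2 scale, so a difference of 1 is a factor of 2. They ran from 1.94 to 14.79, with a lower quartile of 3.83 to 3.91 per array, near which a signal cannot be told from background. Arrays of the same group correlated with r from 0.987 to 0.995 over all probe sets. The 5 MECOM probe sets read 2.61 to 3.60 on all arrays, and the smallest limma adjusted p for EVI1 against vector was 0.248, so the EVI1 label is taken from the series and was not checked by the arrays. Of 8 myeloid markers 7 could be read, with a mean of 9.15 to 9.57 per array. LYZ read 12.35 to 13.65 and ITGB2 11.08 to 12.54, whereas MPO stood at 4.80 to 5.97. Markers of other cell types were lower on average but not all near background. The 3 T cell markers averaged 4.89 to 5.24 per array (highest value 5.72), the 3 epithelial markers 4.21 to 4.51 (KRT18 up to 6.08, EPCAM at most 3.37) and the 4 of fibroblasts and endothelium 5.12 to 5.46 (COL1A1 7.01 to 7.98, CDH5 at most 3.55). Of the B cell markers CD79A read 6.20 to 6.88 and MS4A1 3.87 to 4.77, and of the erythroid markers HBB, the member read here, 5.60 to 6.50. Those of them that could be tested were not called for ATRA or EVI1 by limma, except COL1A1 for ATRA with the replicate number as a block (adjusted p = 0.0370, and 0.280 without it). The DMSO arrays of number 3 stood apart: CD38, an ectoenzyme gene induced by retinoids, read 9.45 in EVI1 and 9.34 in vector cells there, where the remaining DMSO arrays gave 6.44 to 7.05 and the ATRA arrays 10.28 to 10.80. DHRS3, a retinaldehyde reductase gene, read 9.70 in EVI1 and 8.70 in vector cells on those arrays and 5.30 to 6.30 on the remaining DMSO arrays. What sets these 2 arrays apart was not tested, and results are also given without them. RNA came from whole cultures, so fewer cells with a transcript and less of it per cell cannot be told apart.

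The 250 bases upstream of the annotated start are shown for P2RY13, GPR82 and GPR18. These 3 genes were higher with EVI1 averaged over both agents and with ATRA averaged over both cell types. Under DMSO alone EVI1 minus vector was 0.25 ± 0.60 for P2RY13 and 0.94 ± 0.71 for GPR82 (SE), against 1.39 ± 0.15 for GPR18. All 5 genes matched the RefSeq promoter table. The windows are RefSeq sequences of build GRCh38.p14, written 5′ to 3′ on the gene's strand. P2RY13 lies at chr3:151329550-151329799 on the minus strand, GPR82 at chrX:41723931-41724180 on the plus strand, and GPR18 at chr13:99258380-99258629 on the minus strand. Capitals mark matches on either strand to AAGATAA (part of the site known for the amino-terminal zinc fingers of EVI1), GAAGAT (part of the site known for its carboxy-terminal zinc fingers), AGGTCA or AGTTCA (hexamers bound by retinoic acid receptors).
P2RY13: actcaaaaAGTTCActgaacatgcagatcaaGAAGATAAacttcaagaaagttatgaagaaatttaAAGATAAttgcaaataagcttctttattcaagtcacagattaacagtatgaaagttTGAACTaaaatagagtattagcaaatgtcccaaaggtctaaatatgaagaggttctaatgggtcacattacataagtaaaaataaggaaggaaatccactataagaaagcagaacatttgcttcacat
GPR82: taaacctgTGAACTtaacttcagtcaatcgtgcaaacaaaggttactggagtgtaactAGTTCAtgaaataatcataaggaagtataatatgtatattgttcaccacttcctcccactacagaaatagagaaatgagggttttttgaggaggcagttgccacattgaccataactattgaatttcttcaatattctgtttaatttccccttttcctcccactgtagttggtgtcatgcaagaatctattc
GPR18: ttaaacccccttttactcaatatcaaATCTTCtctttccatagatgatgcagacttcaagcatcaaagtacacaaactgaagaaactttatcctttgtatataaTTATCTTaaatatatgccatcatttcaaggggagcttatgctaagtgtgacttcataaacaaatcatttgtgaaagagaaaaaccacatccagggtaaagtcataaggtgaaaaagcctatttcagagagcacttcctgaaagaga

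The P2RY13 window held 2 matches to AAGATAA, 1 to GAAGAT, which overlaps the farther of them, and 2 to AGTTCA. That of GPR82 held 2 matches to AGTTCA and 0 to the EVI1 letters, and that of GPR18 held 1 match each to AAGATAA and GAAGAT. The EMP1 window and both S1PR3 windows held 0 matches to any of the 4. Among 35116 windows of the same length, 2.94% held AAGATAA, 8.73% GAAGAT, 12.1% AGGTCA and 8.80% AGTTCA. The motifs were picked with the sequences in view, and a match is a description of letters, not a site.

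P2RY13, a receptor for ADP that couples to inhibitory G proteins, was high in the group that had both EVI1 and ATRA. It read 5.77, 7.68 and 8.65 in EVI1 ATRA cells, 3.14, 3.51 and 4.78 in EVI1 DMSO cells, 3.98, 4.35 and 4.93 in vector ATRA cells and 3.40, 3.58 and 3.70 in vector DMSO cells (numbers 1, 2 and 3). Each EVI1 ATRA array lay above all 9 others. Of the 14080 genes tested, 1834 had EVI1 ATRA wholly above EVI1 DMSO, 1692 had it above vector ATRA and 2657 (18.9%) above vector DMSO, and nothing is read from these counts, since EVI1 chose the gene. EVI1 DMSO overlapped both vector groups. The group means were 7.37 ± 1.47, 3.81 ± 0.86, 4.42 ± 0.48 and 3.56 ± 0.15 in the same order (SD, n = 3).

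ATRA minus DMSO for P2RY13 was 3.56 ± 0.60 in EVI1 cells and 0.86 ± 0.60 in vector cells (SE of the limma fit), which is 11.8-fold and 1.82-fold. The ATRA effect in EVI1 cells exceeded that in vector cells by 2.70 ± 0.85. EVI1 minus vector was 2.95 ± 0.60 under ATRA and 0.25 ± 0.60 under DMSO. At matched numbers 1, 2 and 3 the DMSO value was -0.26, -0.07 and 1.08, so it rested on number 3. These EVI1 values are given with no test, because the genes are taken as chosen for them. On 5 arrays, 2 of EVI1 DMSO and 3 of vector DMSO, the signal lay at or below the lower quartile of its array, so the folds against DMSO are limited by background. The gene met the signal limit for testing, 5 on 3 arrays, through the EVI1 ATRA arrays alone.

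GPR82 encodes a receptor with no established ligand and behaved like P2RY13, but its EVI1 DMSO array of number 3 reached the range of EVI1 ATRA. It read 6.63, 8.09 and 9.26 in EVI1 ATRA cells, 4.51, 4.61 and 7.31 in EVI1 DMSO cells, 4.90, 5.64 and 5.37 in vector ATRA cells and 4.41, 4.68 and 4.51 in vector DMSO cells. EVI1 ATRA overlapped EVI1 DMSO only through the EVI1 DMSO array of number 3, and the other neighbouring groups in the order of means overlapped as well, apart from vector ATRA and vector DMSO. At matched numbers ATRA minus DMSO was 2.12, 3.48 and 1.95 in EVI1 cells, against 0.49, 0.96 and 0.86 in vector cells.

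The group means of GPR82 were 7.99 ± 1.32 in EVI1 ATRA, 5.48 ± 1.59 in EVI1 DMSO, 5.30 ± 0.37 in vector ATRA and 4.53 ± 0.14 in vector DMSO (SD, n = 3). EVI1 minus vector was 2.69 ± 0.71 under ATRA and 0.94 ± 0.71 under DMSO (SE). The DMSO value rested on number 3, where it was 2.80, against 0.10 and -0.07 at numbers 1 and 2. The same array carried the raised CD38 and DHRS3 signals given above, and the part of that shift in the GPR82 value was not tested.

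All 3 probe sets of GPR82 were highest on average in EVI1 ATRA and lowest in vector DMSO, but differed in the ATRA effect in vector cells. In the fit of all probe sets it was 0.77 ± 0.69 for the main probe set, 0.88 ± 0.87 for 1553317_s_at and 2.33 ± 1.12 for 244434_at (SE). For 244434_at the mean of vector ATRA (5.12) also exceeded that of EVI1 DMSO (4.64), unlike the other 2. Probe set 244434_at read 7.90, 9.45 and 10.65 in EVI1 ATRA cells, 3.02, 2.96 and 7.93 in EVI1 DMSO cells, 3.62, 5.77 and 5.97 in vector ATRA cells and 2.92, 2.65 and 2.79 in vector DMSO cells. Probe set 1553317_s_at ran from 5.86 to 9.02 in EVI1 ATRA cells, from 2.95 to 6.50 in EVI1 DMSO cells, from 3.06 to 4.19 in vector ATRA cells and from 2.74 to 2.99 in vector DMSO cells. The vector DMSO arrays of both lay below the lower quartile, and the EVI1 DMSO array of number 3 stood above the others of its group in each probe set.

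**Figure D1:**
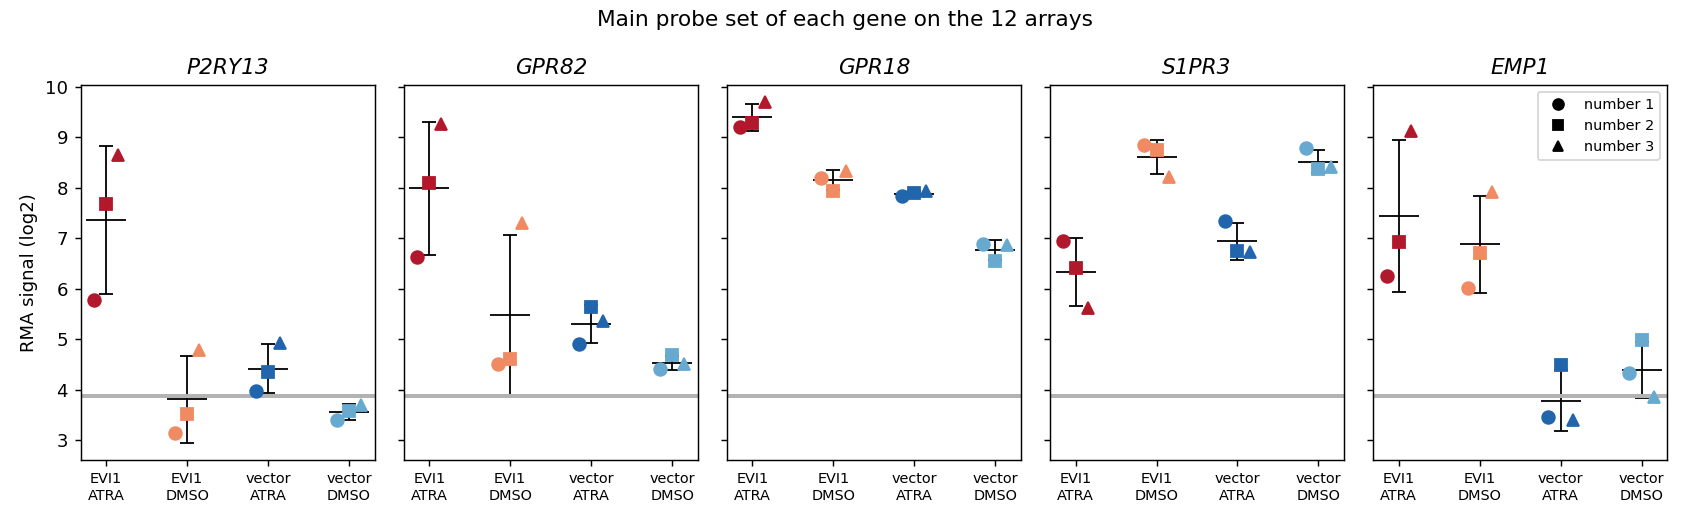
RMA signal (log2) of the main probe set of each gene on the 12 arrays, by group; symbols mark the replicate number, black bars the mean and SD of 3 arrays, and the grey band the lower quartiles of the arrays (3.83 to 3.91). P2RY13 lies at 5.77 to 8.65 in EVI1 ATRA and at no more than 4.93 elsewhere, S1PR3 is lower on all ATRA arrays, and EMP1 is higher on all EVI1 arrays.

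GPR18, a leukocyte receptor for which lipid ligands such as N-arachidonylglycine have been proposed, was higher with EVI1 and higher with ATRA, with little spread. It read 9.20, 9.28 and 9.70 in EVI1 ATRA cells, 8.20, 7.94 and 8.33 in EVI1 DMSO cells, 7.83, 7.89 and 7.94 in vector ATRA cells and 6.89, 6.54 and 6.87 in vector DMSO cells. EVI1 ATRA lay above and vector DMSO below all other arrays, whereas EVI1 DMSO and vector ATRA met at 7.94. EVI1 DMSO lay wholly above vector DMSO in 8.23% of all genes, and vector ATRA above vector DMSO in 1683 of 14080. The whole pattern of GPR18 was not counted over all genes, so nothing is read from it. The means were 9.39 ± 0.27, 8.16 ± 0.20, 7.89 ± 0.06 and 6.77 ± 0.20 in that order (SD, n = 3).

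EVI1 minus vector for GPR18 was 1.51 ± 0.15 under ATRA and 1.39 ± 0.15 under DMSO (SE), or 2.84-fold under ATRA. ATRA minus DMSO was 1.24 ± 0.15 in EVI1 cells and 1.12 ± 0.15 in vector cells. The ATRA effects thus differed by 0.12 ± 0.22, less than its standard error, so on the log2 scale the values in EVI1 ATRA were close to the sum of both differences. Only 1 probe set reads GPR18.

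S1PR3, a receptor for sphingosine 1-phosphate that couples to several classes of G protein, was lower with ATRA in both cell types. It differed less between the cell types than between the agents. It read 6.95, 6.42 and 5.61 in EVI1 ATRA cells, 8.85, 8.75 and 8.22 in EVI1 DMSO cells, 7.35, 6.74 and 6.72 in vector ATRA cells and 8.78, 8.37 and 8.41 in vector DMSO cells. The 6 ATRA arrays all lay below the 6 DMSO arrays, as in 4.13% of all genes tested, and EVI1 and vector cells overlapped under either agent.

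ATRA minus DMSO for S1PR3 was -2.28 ± 0.30 in EVI1 cells and -1.58 ± 0.30 in vector cells (SE), and over both cell types -1.93 ± 0.21, which leaves 0.262 of the DMSO level. This is a description with no test, because the gene had been named before for its ATRA effect. EVI1 minus vector was -0.61 ± 0.30 under ATRA and 0.09 ± 0.30 under DMSO. Under ATRA it was -0.40, -0.32 and -1.11 at numbers 1, 2 and 3. With the replicate number as a block, the SE of the value under ATRA was 0.17. Over both agents EVI1 minus vector was -0.26 ± 0.21, and -0.08 without EVI1 ATRA number 3. Whether S1PR3 is linked to EVI1 was not tested. The 2 probe sets disagreed: 231741_at read 5.06 to 5.58 on all 12 arrays and differed by 0.03 ± 0.10 between ATRA and DMSO. With both probe sets averaged, the ATRA difference of S1PR3 was -0.95.

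EMP1, an epithelial membrane protein of the PMP22 family that is no receptor, was high in EVI1 cells whichever agent they had been given. It read 6.25, 6.93 and 9.13 in EVI1 ATRA cells, 6.01, 6.71 and 7.92 in EVI1 DMSO cells, 3.46, 4.48 and 3.41 in vector ATRA cells and 4.33, 4.98 and 3.86 in vector DMSO cells. All 6 EVI1 arrays lay above all 6 vector arrays, which held for 1.88% of the genes tested. Nothing is read from that share, since EVI1 chose the gene. The means were 7.44 ± 1.51, 6.88 ± 0.97, 3.78 ± 0.60 and 4.39 ± 0.56 in that order (SD, n = 3).

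EVI1 minus vector for EMP1 was 3.65 ± 0.66 under ATRA and 2.49 ± 0.66 under DMSO (SE), and 3.07 ± 0.47 over both agents, or 8.41-fold. At matched numbers it was 2.79, 2.45 and 5.72 under ATRA and 1.68, 1.73 and 4.06 under DMSO, so number 3 gave the largest difference with each agent. On 2 vector ATRA arrays the signal lay at or below the lower quartile, which limits the fold under ATRA. ATRA minus DMSO was 0.24, 0.22 and 1.21 in EVI1 cells and -0.87, -0.50 and -0.45 in vector cells, a pattern of opposite signs shared by 0.838% of the genes tested. The ATRA effects differed by 1.16 ± 0.94 (SE), and by 1.95 without the DMSO arrays of number 3.

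Of the 6 EMP1 probe sets, 201324_at and 201325_s_at read above 5 on every EVI1 array. Probe set 201325_s_at read 5.39, 5.55 and 7.73 in EVI1 ATRA cells, 5.55, 5.37 and 6.12 in EVI1 DMSO cells, 4.09, 3.91 and 3.76 in vector ATRA cells and 4.76, 4.40 and 3.88 in vector DMSO cells, again with every EVI1 array above every vector array. Its EVI1 difference over both agents was 1.82 ± 0.34, against 3.07 ± 0.46 for 201324_at in the same fit of all probe sets. The remaining 4 read 2.70 to 4.74. Of these, 229011_at (4.74 and 4.16) and 213895_at (4.27 and 3.18) were highest on the EVI1 ATRA array of number 3, the EVI1 DMSO array of that number being given as the second value.

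**Figure D2:**
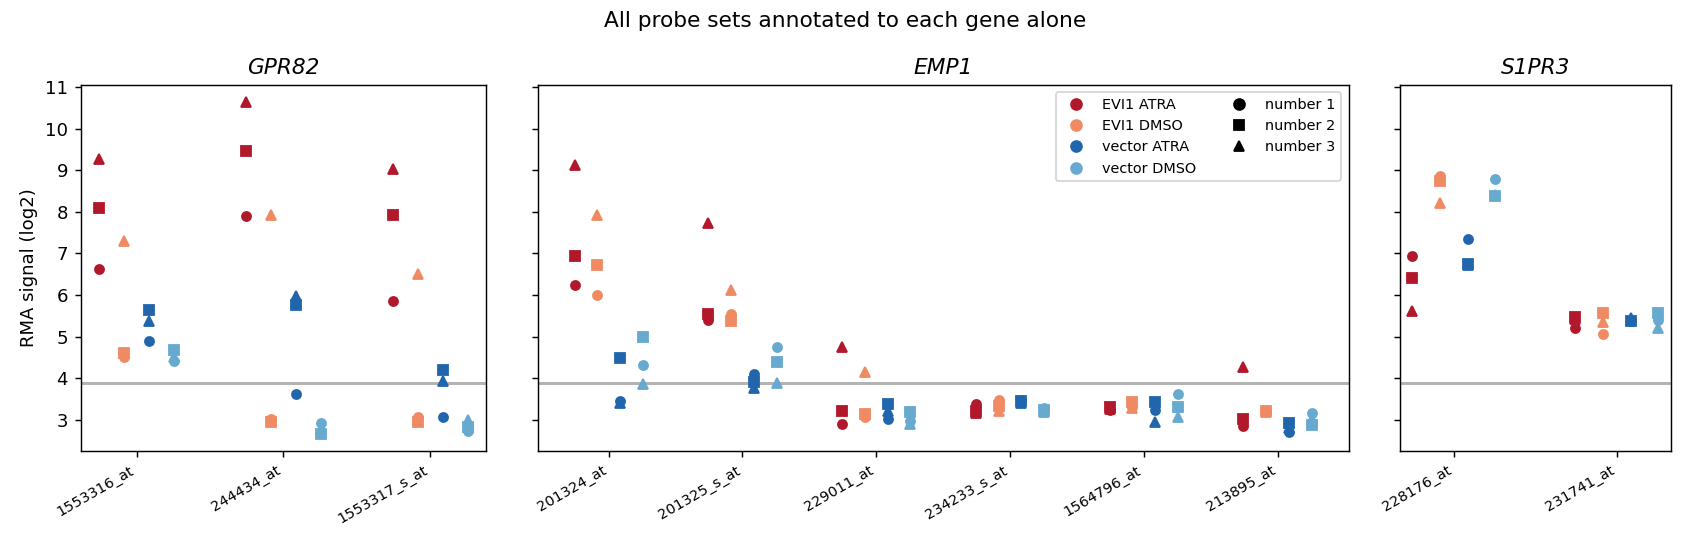
RMA signal (log2) of every probe set annotated to GPR82, EMP1 or S1PR3 alone; colours mark the group, symbols the replicate number, and the grey line the lower quartiles of the arrays. The 3 GPR82 probe sets are all highest on average in EVI1 ATRA but differ in vector ATRA. Of 6 EMP1 probe sets 4 stay at or below 4.74, and the second S1PR3 probe set stays at 5.06 to 5.58.

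The difference between ATRA and DMSO, taken as the mean of EVI1 and vector cells, could be tested for P2RY13, GPR82, GPR18 and EMP1, if the genes were chosen by EVI1 differences alone, since in this balanced design that mean is independent of them. GPR82 and GPR18 rose, in a comparison in which limma called 11.1% of 14080 genes higher and 11.3% lower at an adjusted p under 0.05. GPR18 rose by 1.18 ± 0.11 (SE; 2.26-fold, adjusted p = 7.09e-05). GPR82 rose by 1.64 ± 0.50 (3.12-fold, adjusted p = 0.0346). P2RY13 had met the signal limit only through the EVI1 ATRA arrays, and EMP1 only through the EVI1 arrays, where each is high. Both were therefore tested in the fit of all 19775 genes with no such limit. There P2RY13 rose by 2.21 ± 0.41 (4.62-fold, adjusted p = 0.00325 by limma), with 7.42% of the 19775 genes called higher. EMP1 was not called there, at -0.03 ± 0.46 (adjusted p = 0.989 by limma). ATRA exceeded DMSO at all 3 numbers in both cell types for P2RY13, GPR82 and GPR18. The share of all genes with that pattern was not counted, so nothing is read from it.

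In the fit without the replicate number as a block, the call of GPR82 lay near the threshold. Leaving out any 1 of 9 arrays ended it, with adjusted p of 0.0601 to 0.0830 by limma and differences of 1.33 to 1.68. It held without EVI1 ATRA number 1, EVI1 DMSO number 3 or vector ATRA number 1. In the fit of all probe sets the main probe set of GPR82 was not called (adjusted p = 0.0566 by limma). Probe sets 1553317_s_at and 244434_at were called there (adjusted p = 0.0466 and 0.0147 by limma). With the block GPR82 rose by 1.64 ± 0.38 (SE, adjusted p = 0.00524 by limma), and single arrays were not left out of that fit. With both DMSO arrays of number 3 left out, the ATRA differences were 2.10 for GPR82 and 1.25 for GPR18, both still called (adjusted p = 0.00609 and 0.000168 by limma), and that of P2RY13 was 2.49. The ATRA effect of GPR82 in EVI1 cells then exceeded that in vector cells by 2.68, against 1.75 ± 1.00 with all arrays. Single arrays moved that value as well, to 2.66 without EVI1 DMSO number 3 and to 1.11 without EVI1 ATRA number 3.

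**Figure D3:**
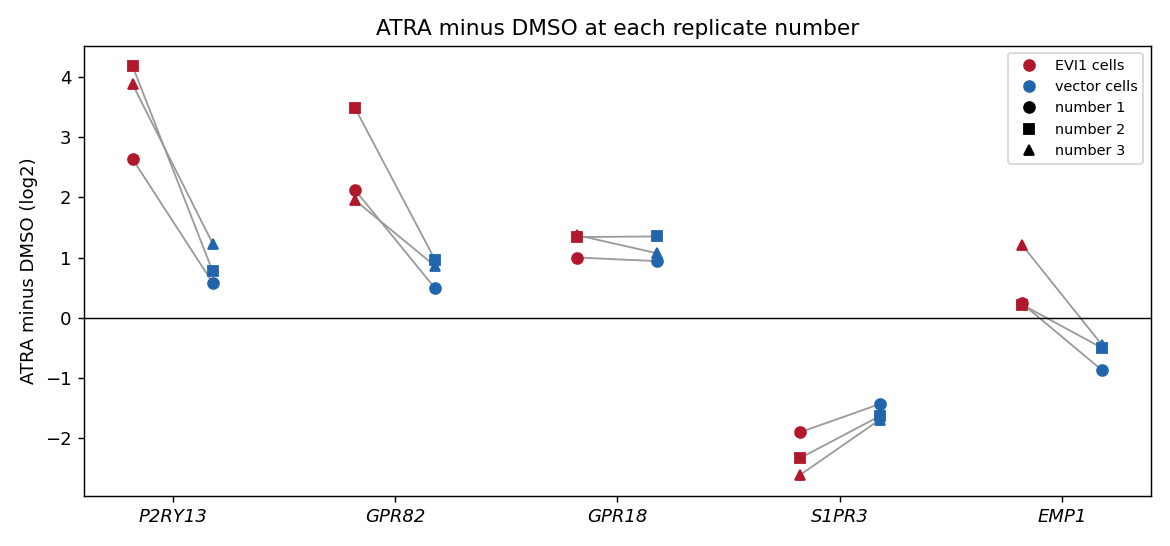
ATRA minus DMSO (log2) of each gene at each replicate number, in EVI1 cells (left of each pair, red) and vector cells (right, blue); grey lines join the same number. P2RY13 lies at 2.63 to 4.17 in EVI1 cells and 0.58 to 1.23 in vector cells, GPR18 is alike in both, and EMP1 lies above 0 in EVI1 cells and below 0 in vector cells.

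For each gene the 3 other genes with the most similar profile were taken by Pearson correlation of log2 levels over the 12 arrays, which share groups and replicate numbers. P2RY13 was most like CCL26 (r = 0.977), a chemokine gene, ARL15 (0.974) and MAP1LC3B (0.974), which encodes an autophagosome protein. CCL26 averaged 7.15 in EVI1 ATRA, 4.88 in EVI1 DMSO, 5.18 in vector ATRA and 4.64 in vector DMSO. GPR82 was most like the zinc finger factor gene EGR3 (0.988), the stress cytokine gene GDF15 (0.971) and EGR1 (0.968), and EGR3 averaged 8.64, 5.02, 4.16 and 3.76 in the same order of groups. GPR18 was most like STYXL1 (0.984), the cell cycle inhibitor gene CDKN1A (0.978) and KCNMB1 (0.977), a potassium channel subunit gene. CDKN1A averaged 10.64, 9.15, 9.08 and 7.85, the same order of groups as GPR18. S1PR3 was most like RFTN1 (0.995), BEX1 (0.993) and CDR2 (0.991), and EMP1 like the integrin gene ITGA7 (0.969), PCCA (0.952), which encodes a propionyl-CoA carboxylase subunit, and the adenylyl cyclase gene ADCY7 (0.949). Genes with r over 0.9 numbered 500 for S1PR3, 329 for P2RY13, 206 for GPR18, 181 for GPR82 and 29 for EMP1.

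Genes that lie next to the 5 in the RefSeq gene table did not share their profiles as a rule. P2RY13 stands on chromosome 3 between P2RY14 and P2RY12, receptor genes of the same family, which read 2.55 to 2.81 and 3.33 to 3.83 on all 12 arrays, and its host gene MED12L read 4.43 to 5.14. GPR82 lies within CASK on chromosome X beside GPR34, a receptor for lysophosphatidylserine. GPR34 read 4.90, 7.39 and 7.14 in EVI1 ATRA cells, 3.41, 3.99 and 3.92 in EVI1 DMSO cells, 5.71, 7.23 and 7.28 in vector ATRA cells and 3.65, 4.09 and 4.42 in vector DMSO cells. It thus rose with ATRA in both cell types alike, by 2.70 ± 0.41 (SE, adjusted p = 0.000946), and EVI1 minus vector was -0.27 ± 0.41 (adjusted p = 0.760 by limma). GPR34 met the signal limit through ATRA arrays alone, where it is high, so its ATRA call is limited by that choice. CASK itself fell by 0.40 ± 0.07 with ATRA (adjusted p = 0.00283).

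GPR18 lies within UBAC2 on chromosome 13, which stayed at 9.60 to 9.97, beside GPR183, a receptor for oxysterols. GPR183 differed by -0.68 ± 0.27 with ATRA (adjusted p = 0.0967, and 9.38e-05 with the replicate number as a block in limma). Beside S1PR3 on chromosome 9, CKS2, a cell cycle gene, fell by 0.35 ± 0.11 with ATRA (adjusted p = 0.0433), and NXNL2 stayed at 2.57 to 2.97. Beside EMP1 on chromosome 12, FAM234B was higher in EVI1 cells by 0.39 ± 0.10 (adjusted p = 0.0258) and GSG1 fell by 1.20 ± 0.38 with ATRA (adjusted p = 0.0392). GSG1 also differed by -0.68 with EVI1, called under the block alone (adjusted p = 0.0153 by limma, and 0.310 without it). Of 21 neighbours and host genes 12 could be tested. With ATRA 2 rose and 3 fell (8 called with the block), where 22.4% of all genes were called (40.6% with the block). With EVI1 1 was higher and 1 lower (3 called with the block), where 9.69% of all genes were called (28.6% with the block), IGSF10 beside P2RY13 being the lower one, at -0.27 ± 0.08 (adjusted p = 0.0498).

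Other genes that work with these receptors were taken as 8 lists of 102 genes, of which 74 could be tested. With ATRA 11 rose and 6 fell, which is 23.0% of them against 22.4% of all genes (11.1% higher and 11.3% lower), and the median difference was -0.01 over all genes and close to 0 over the listed ones. With EVI1 11 were higher and 8 lower, which is 25.7% against 9.69% of all genes (5.70% higher, and 563 of 14080 lower), with a median of 0.04 against 0 for all genes. The lists were chosen with earlier results of these data known, so nothing is read from the larger share with EVI1. ADORA3, whose limit is given below, is counted among the called genes for both ATRA and EVI1. With the replicate block 19 rose and 16 fell with ATRA (19.2% and 21.4% of all genes, 40.6% together). In that fit 21 were higher and 11 lower with EVI1 (16.0% and 12.7% of all genes, 28.6% together). Without the DMSO arrays of number 3, 13 rose and 6 fell with ATRA, 25.7% against 21.2% of all genes, and with EVI1 7 were higher and 6 lower, 17.6% against 4.95% of all genes. The genes named below by the rule for lists were called in that fit as well. None of the 74 was called for a difference between the ATRA effects of EVI1 and vector cells, where limma called 0 of 14080 genes with or without the block (362 without and 1846 with it at an unadjusted p under 0.05).

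Of 9 other P2Y receptor genes 3 could be tested, of which 2 fell with ATRA (3 with the block) and 1 was lower with EVI1. P2RY2, a receptor for ATP and UTP, was lower in EVI1 cells, which read 6.09 to 7.24, than in vector cells, which read 7.01 to 8.02 (-0.97 ± 0.15 SE, adjusted p = 0.00206 by limma). P2RY2 also fell with ATRA, by 0.54 ± 0.15 (adjusted p = 0.0237). Of 11 genes of nucleotide breakdown and adenosine or ion channel receptors tested, 2 rose and 1 fell with ATRA (3 and 1 with the block), and 2 were higher and 1 lower with EVI1. ENTPD1, the ectonucleotidase CD39 that consumes ATP and ADP, read 7.59 to 8.59 on ATRA and 6.88 to 7.64 on DMSO arrays and rose by 0.78 ± 0.12 (adjusted p = 0.00119). The adenosine receptor gene ADORA3 rose by 0.52 ± 0.09 (adjusted p = 0.0016 by limma) and differed by -0.49 ± 0.09 with EVI1 (adjusted p = 0.00471). ADORA3 met the signal limit only through the vector ATRA arrays (5.34 to 5.60), where it is high. It read at most 4.90 in the other groups, so nothing is read from its 2 calls.

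Of 11 tested genes of sphingosine 1-phosphate other than S1PR3, PLPP3 alone was called for ATRA or EVI1 (3 more fell with ATRA under the block, and with EVI1 5 were then higher and 1 lower). PLPP3 encodes a phosphatase that removes phosphate from extracellular lipid phosphates. It read 7.61 to 9.50 in EVI1 ATRA, 5.91 to 6.61 in EVI1 DMSO, 5.92 to 6.71 in vector ATRA and 5.36 to 6.08 in vector DMSO, so EVI1 ATRA lay above all other groups. How many of all genes have EVI1 ATRA above all other groups was not counted, so nothing is read from that order. It rose by 1.52 ± 0.28 with ATRA (SE, adjusted p = 0.00274) and was higher with EVI1 by 1.44 ± 0.28 (adjusted p = 0.00783 by limma). The receptor genes S1PR2, S1PR4 and S1PR5 were not called for ATRA, with differences of -0.07, -0.04 and -0.11. S1PR4 was higher with EVI1 by 0.245, called under the block alone (adjusted p = 0.0175 by limma, and 0.109 without it).

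Of 12 tested lipid and orphan receptor genes 5 rose with ATRA and 1 was lower with EVI1. With the block 6 rose and 1 fell with ATRA, and 2 were higher and 2 lower with EVI1. GPR35, a receptor gene of immune and gut cells, read 7.66 to 8.95 on ATRA arrays and 6.19 to 7.20 on DMSO arrays and rose by 1.49 ± 0.16 (adjusted p = 0.000139). GPR65, a receptor that senses acid, read 5.15 to 6.09 in EVI1 cells and 6.19 to 7.01 in vector cells, lower by 1.18 in EVI1 cells on the log2 scale (SE 0.16, adjusted p = 0.000902). Of 8 endocannabinoid enzyme genes, MGLL, which encodes the lipase that degrades 2-arachidonoylglycerol, rose by 1.28 ± 0.15 with ATRA (adjusted p = 0.000269), and 2 others fell with the block. With EVI1 2 of the 8 were higher (3 with the block) and 3 lower, among them NAAA, an acid amidase gene, at -0.53 ± 0.09 (adjusted p = 0.00417).

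Downstream of the receptors, 1 of 12 G alpha subunit genes rose and 2 fell with ATRA, and 1 was higher and 1 lower with EVI1. With the block 3 rose and 4 fell with ATRA, and 3 were higher and 2 lower with EVI1. GNAL, a subunit of the stimulatory class, read 5.30 to 6.13 on ATRA and 6.27 to 7.42 on DMSO arrays and fell by 1.03 ± 0.13 (SE, adjusted p = 0.000333). GNA15, a subunit of the Gq class found in blood cells, was higher with EVI1 by 0.50 ± 0.07 (adjusted p = 0.00142). Of 14 genes that turn receptor signals off, RGS16 fell by 1.15 ± 0.13 with ATRA (adjusted p = 0.0002), and 4 others rose with the block. With EVI1 4 of the 14 were higher (5 with the block) and 1 lower. RGS2, which limits Gq signals, read 6.33 to 6.79 in EVI1 cells and 7.59 to 7.92 in vector cells, a difference of -1.14 ± 0.08 (adjusted p = 5.98e-06). RGS3 differed by 0.66 ± 0.11 (adjusted p = 0.00385) and the receptor kinase gene GRK3 by 0.48 ± 0.07 (adjusted p = 0.00136).

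Of 3 tested relatives of EMP1, EMP2 was higher in EVI1 cells too. EMP2 read 9.18 to 9.83 in EVI1 cells and 8.40 to 8.87 in vector cells, a difference of 0.90 ± 0.09 (SE, adjusted p = 0.000151 by limma), and rose with ATRA by 0.36 ± 0.09 (adjusted p = 0.0143). EMP3 (0.04 ± 0.22) and PERP (0.01 ± 0.07) were not called for EVI1, and EMP3 fell with ATRA under the block.

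**Figure D4:**
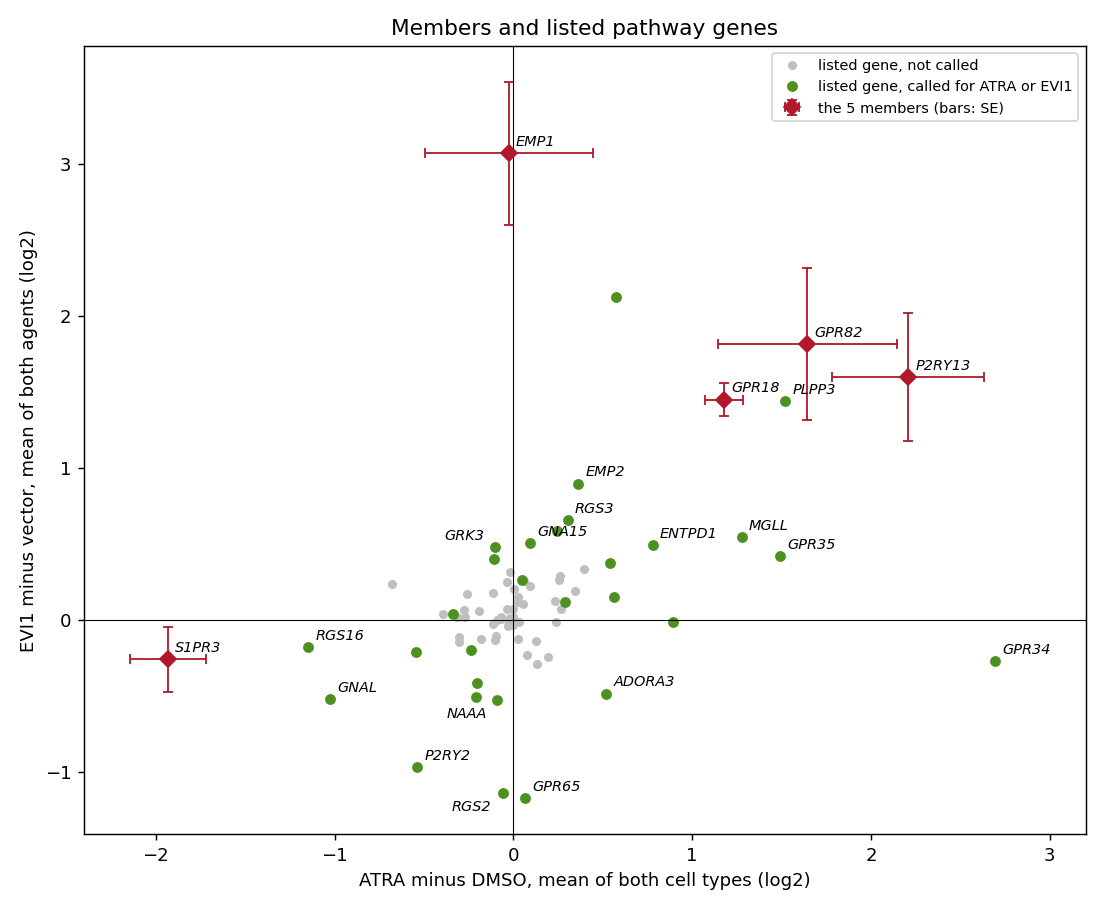
Difference of each gene between ATRA and DMSO (x, mean of both cell types, log2) and between EVI1 and vector (y, mean of both agents, log2), for the 5 genes described (red, bars are SE) and the 74 tested list genes (green where called for ATRA or EVI1, grey where not; the genes named by rule carry their symbol). P2RY13, GPR82 and GPR18 lie high on both axes with PLPP3 near them, EMP1 is high on the EVI1 axis alone, and S1PR3 and GPR34 lie at opposite ends of the ATRA axis.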

How the data were processed

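The data are 12 Affymetrix 3′ expression arrays. The deposited values are log2 signals that the submitters' processing notes credit to RMA and Affymetrix Expression Console 1.3, and settings are not given in the sources used here. RMA fits all arrays jointly, which compresses differences near background. Of 54675 probe sets, 41097 carried exactly 1 gene symbol in the array annotation, and 1801 with several were left out. Genes were represented by the probe set with the highest mean, and 14080 of 19775 genes reached 5 on at least 3 arrays. A model of the 4 group means was fitted by lmFit and eBayes (limma 3.58.1, R 4.3.3), leaving 8 residual degrees of freedom, with Benjamini-Hochberg adjustment over the 14080 genes and a threshold of 0.05. On simulated data of 14080 genes, the fit recovered 95% of ATRA effects of 1 and 97% of effects of 2 on the log2 scale, with 9 false calls. The simulated noise was independent between arrays with 1 SD per gene. Real arrays of the same number share deviations, so these rates check the code and do not give the power on these data.

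The genes and lists were chosen with earlier results of these data known. Named list genes were the 8 with the smallest adjusted p among those called in a comparison. Deviations from group means correlated for all 18 pairs of arrays sharing a number (0.408 to 0.704; -0.56 to 0.164 for different numbers), so numbers pair the samples, and the blocked fit is given where it changes a call. Alternatives were the block, 2 filters on low values, the mean of all probe sets, quantile normalization, a variance trend and each array left out. The number of arrays limits the precision.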

Additional observations from a re-analysis of the deposited data

Results flagged for a closer look

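EMP1 was the gene among the 5 whose ATRA minus DMSO value lay above 0 at all 3 numbers in EVI1 cells and below 0 at all 3 in vector cells. The ATRA effect in EVI1 cells minus that in vector cells was 1.16 on the log2 scale (SE 0.94), and that difference was not tested. The same pattern of signs was found in 0.838% of the 14080 genes. Over the left-out arrays the value ran from 0.32, without EVI1 ATRA number 3, to 1.76, without EVI1 ATRA number 1.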

How the results depend on the processing

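Of 279 recomputed values of the 5 genes, 262 kept their direction and their side of the threshold, or moved by less than the residual SD where there was no test. P2RY13 could not be recomputed under the stricter filter (6 on 3 arrays), which it did not meet, nor EMP1 from the mean of its probe sets, which stayed under the signal limit. With the replicate block, limma called 5723 genes for ATRA (3158 without it) and 4033 for EVI1 (1365 without it), and it changed no call of P2RY13, GPR82, GPR18 or EMP1 for ATRA. With each array left out in turn the counts ran from 2320 to 3835 for ATRA and from 869 to 2100 for EVI1, with 2100 reached without EVI1 ATRA number 1 869 without EVI1 DMSO number 3 and 891 without vector DMSO number 2. For the difference between the ATRA effects 0 genes were called, or 1 without EVI1 ATRA number 1. Without the DMSO arrays of number 3, an alternative added after seeing the data, 2978 genes were called for ATRA and 697 for EVI1, and the ATRA difference of EMP1 was 0.10, with the sign reversed. Over the left-out arrays the ATRA difference of EMP1 ran from -0.45 to 0.27, so its direction is not set. That of GPR82 ran from 1.33 to 2.10, and was 2.44 as the mean of its 3 probe sets, and the EVI1 difference of EMP1 from 2.65 to 3.37. Averaging both probe sets moved the ATRA difference of S1PR3 to -0.95. No alternative moved the median of all genes by over 0.1. Signals of P2RY13 in the DMSO groups and of EMP1 in vector ATRA are limited by background, and the cause of the lost calls was not tested.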

Other observations

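Within groups, P2RY13, GPR82, GPR18 and EMP1 deviated in the same direction. After each group's mean was removed, P2RY13 and GPR82 correlated with r = 0.903 over the 12 arrays, GPR82 and EMP1 with 0.852 and P2RY13 and EMP1 with 0.774. S1PR3 ran the other way, with r = -0.915 to P2RY13, -0.856 to GPR82 and -0.843 to EMP1. GPR18, the gene with the smallest spread, gave 0.658 with P2RY13, 0.657 with GPR82 and 0.512 with EMP1. Arrays of the same number share these deviations across groups, so they are not 12 independent points.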
